A study of Mus musculus with 6 samples.

Results

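Kinesins are motor proteins that use ATP to act on microtubules. The members described here are the genes whose symbol is Kif followed by a number, or Kifc1, Kifc2 or Kifc3, with at least 1 array probe set that the annotation pairs with that symbol alone. There were 37 such genes, measured by 41 probe sets, of 16797 genes and 18197 probe sets with 1 symbol. Kif6, Kif7, Kif14 and Kif26b had 2 probe sets each, and the other members 1. The arrays measured total RNA of NIH3T3 mouse embryonic fibroblasts, an immortalized line that the study calls Normal cells, in 3 biological replicates without forskolin (N) and 3 with it (NF). Both groups were plated in 25 mM glucose, changed after 16 h to medium with 1 mM glucose and harvested 72 h later. NF cells received 10 μM forskolin (FSK), which activates adenylate cyclase and through cAMP the kinase PKA, at 24 h and 48 h. The labels describe N as cells without FSK and name no vehicle, while legends of the paper give DMSO as the vehicle in FSK experiments on these lines. The labels do not say whether the biological replicates were separate cultures, so that p-values measure the spread between these samples.

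Most kinesins walk along a microtubule with a cargo, while others slide microtubules past each other or shorten their ends. In dividing cells a set of kinesins builds the bipolar spindle, aligns the chromosomes and organizes the midzone where the daughter cells separate, and the mRNAs of many of these genes are known to peak in G2 and M phase. Members that carry vesicles, mitochondria or ciliary cargo act throughout the cell cycle. The 37 genes were therefore sorted by role into 11 spindle kinesins, 14 transport kinesins and 12 kinesins of cilia or of microtubule length. In a whole culture, more cells in mitosis and more of an mRNA in each cell cannot be told apart.

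The arrays carried the marks of fibroblasts. The 8 fibroblast markers measured, among them Vim, Fn1, Col1a1 and Sparc, had mean log2 levels between 6.20 and 12.55, above the median of all probe sets (3.70), and Col3a1 alone of them passed the test (log2 change 1.33, adjusted p = 0.0157 from limma). The 6 neuronal, 3 leukocyte and 2 endothelial markers all lay below that median, at 2.57 to 3.40, 2.58 to 3.27 and 2.73 to 3.03, and the 4 epithelial ones lay at 2.43 to 3.79. By limma, 0 of these 15 passed, and without adjustment 1 was lower at p under 0.05 (the epithelial Cdh1) and 0 higher. Among N arrays, replicate 1 stood apart. For probe sets with a mean log2 level between 5 and 6.5, the median gap to the average of the other N arrays was -0.50, and it was -0.49 between 6.5 and 8. Several values below are therefore also given without this array.

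Since all 6 genes that passed the test were spindle kinesins, promoters of this class are shown first. In such genes a CHR (cell cycle genes homology region, TTTGAA), often near a CCAAT box bound by NF-Y, is the element through which the DREAM and B-MYB complexes are known to switch G2 and M genes. RefSeq promoters (build GRCm38.p6) run from 250 bases before to 50 after the annotated start, and 30 of the 37 genes had one. Each window below covers the last 120 bases before the start and the first 30 after it, on the gene's strand from 5′ to 3′. Capitals mark TTTGAA, the CCAAT box and the E2F sites TTTCCCGC and TTTGGCGC, or their reverse complements. The first 6 belong to the genes that passed the test. Kif15 and Kif18a are spindle kinesins that did not, and Kif3b is a transport kinesin.
Kif2c (chr4:117178743-117178892, minus strand): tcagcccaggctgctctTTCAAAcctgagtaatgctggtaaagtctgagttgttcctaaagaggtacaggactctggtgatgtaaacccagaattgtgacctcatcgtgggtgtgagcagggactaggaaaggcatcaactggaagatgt
Kif18b (chr11:102925095-102925244, minus strand): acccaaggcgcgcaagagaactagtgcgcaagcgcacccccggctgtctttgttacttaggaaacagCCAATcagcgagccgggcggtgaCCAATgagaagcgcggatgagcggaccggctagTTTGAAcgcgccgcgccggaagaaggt
Kif11 (chr19:37376262-37376411, plus strand): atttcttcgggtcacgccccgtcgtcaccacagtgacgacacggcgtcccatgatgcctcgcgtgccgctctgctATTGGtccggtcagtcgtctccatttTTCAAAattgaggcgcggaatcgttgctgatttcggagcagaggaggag
Kif4 (chrX:100625945-100626094, plus strand): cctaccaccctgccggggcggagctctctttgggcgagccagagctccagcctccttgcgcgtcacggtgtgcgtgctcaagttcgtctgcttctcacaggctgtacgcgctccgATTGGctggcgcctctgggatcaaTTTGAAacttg
Kif22 (chr7:127042391-127042540, minus strand): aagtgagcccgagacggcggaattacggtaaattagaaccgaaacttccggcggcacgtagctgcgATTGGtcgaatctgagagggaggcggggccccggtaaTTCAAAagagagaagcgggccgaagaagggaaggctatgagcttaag
Kif23 (chr9:61946770-61946919, minus strand): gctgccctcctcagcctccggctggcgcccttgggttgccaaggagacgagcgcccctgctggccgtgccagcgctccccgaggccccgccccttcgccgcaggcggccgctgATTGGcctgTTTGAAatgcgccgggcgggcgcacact
Kif15 (chr9:122950961-122951110, plus strand): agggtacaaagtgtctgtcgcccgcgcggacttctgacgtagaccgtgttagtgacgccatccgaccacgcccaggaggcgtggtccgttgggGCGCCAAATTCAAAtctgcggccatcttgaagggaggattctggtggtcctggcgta
Kif18a (chr2:109280618-109280767, plus strand): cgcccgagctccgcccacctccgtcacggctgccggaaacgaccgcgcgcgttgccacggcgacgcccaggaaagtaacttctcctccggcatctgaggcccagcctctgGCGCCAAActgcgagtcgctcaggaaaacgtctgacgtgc
Kif3b (chr2:153291296-153291445, plus strand): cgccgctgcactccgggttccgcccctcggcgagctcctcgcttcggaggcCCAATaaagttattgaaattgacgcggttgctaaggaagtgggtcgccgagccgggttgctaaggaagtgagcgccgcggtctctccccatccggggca

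A CHR stood in the 300-base promoters of 9 of the 11 spindle kinesins, against 17.9% of all 32851 promoters and 14.9% of those whose gene has a probe set of 1 symbol. It was found in 1 of 9 transport kinesins with a promoter (Kif1a) and in 2 of 10 of the third class (Kif26b and Kif27). All 6 genes past the test were among the 9, with matches before the start at 103 bases in Kif2c, 19 in Kif11 and at both 215 and 17 in Kif22, and shortly after it in Kif18b, Kif23 and Kif4. The spindle kinesins without a CHR were Kif18a and Kif2b. A CHR and a CCAAT box occurred together in 6 spindle kinesins, 5 of them past the test (Kif18b, Kif11, Kif4, Kif22 and Kif23) and the other Kif14, and in 6.95% of all promoters. The boxes alone were common, in 37.4% of all promoters, in 7 of 11 spindle and in 3 of 9 transport kinesins. E2F sites occurred in Kif15 and Kif18a and in 1.56% of all promoters. Among promoters whose gene has a probe set of 1 symbol, the shares were 5.96% for a CHR with a CCAAT box, 37.8% for the box and 2.22% for E2F sites. A member counted as holding a motif where any of its windows did, with 34 windows for 30 genes, while the shares of promoters count single windows.

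The full cAMP response element TGACGTCA, the site of the PKA-activated factor CREB, was present in 1.79% of all promoters and in 2.37% of those whose gene has a probe set of 1 symbol. Among members it was found in Kif18a, 31 bases after the start, and in the transport kinesins Kif17 and Kif5c. By limma 0 of these 3 passed, with Kif18a higher and 0 lower before adjustment at p under 0.05. Cenpe, a kinesin whose symbol lies outside the rule and which passed limma's test, had this element 34 bases before the start. Its promoter also held a CCAAT box, 12 bases before the start, and no CHR. Cenpe is a single gene, and promoters of other genes that work with the spindle kinesins were not looked at one by one. These counts describe letters in a fixed window. They name no bound factor, and the motifs were searched on both strands, with a CHR and a CCAAT match sharing bases in 47 promoters.

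**Figure D1:**
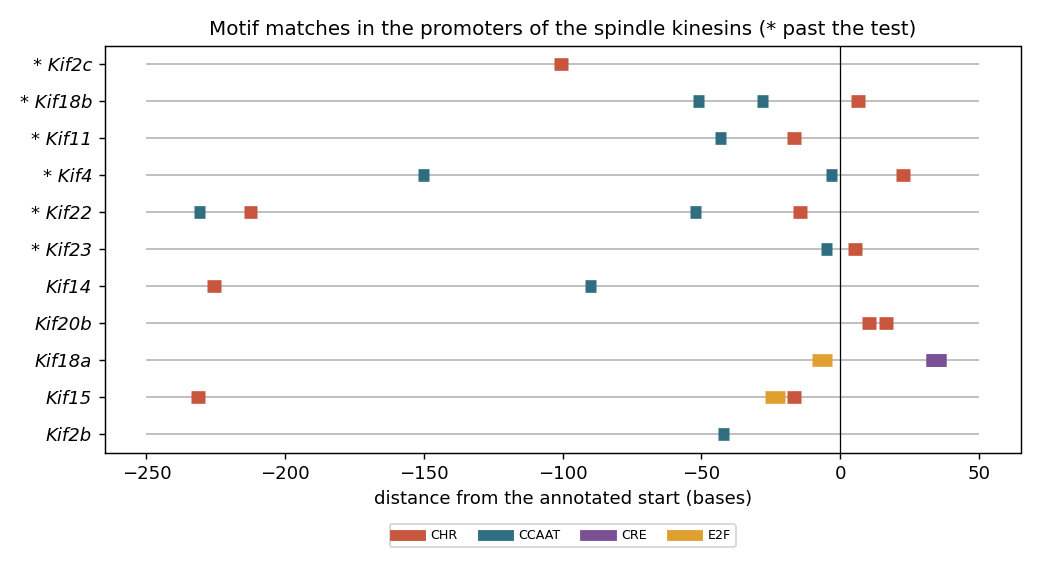
Matches to the CHR, CCAAT, CRE and E2F motifs (coloured blocks) in the promoters of the 11 spindle kinesins, from 250 bases before to 50 after the annotated start (horizontal axis, bases), with genes ordered by log2 change from the highest down and stars at the 6 that passed the test. A CHR is present in all 6 starred genes and in 3 of the other 5.

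FSK-treated cells had more mRNA of 6 kinesins, all of them motors of the spindle. Kif2c, Kif18b, Kif11, Kif4, Kif22 and Kif23 rose between 2.20-fold and 5.36-fold, and 0 members fell (limma, adjusted p under 0.05). At an unadjusted p under 0.05, limma had 11 members higher and 1 lower, and an unmoderated per-gene test, which the paper names for data other than its arrays, had 9 higher and 2 lower (0 of either after adjustment). Over all 16797 genes 1.83% passed as higher and 0.72% as lower, 2.55% in either direction, and before adjustment 8.33% were higher and 5.49% lower at p under 0.05, or 5.95% and 5.13% by the unmoderated test. With NF replicate 1 or NF replicate 3 left out, 0 members passed, and the directions of the 6 were kept. The 6 genes ranked between 15 and 138 by p among all genes. The 14 transport kinesins and the 12 of the third class held 0 genes past the test. By class, the median log2 change was 1.14 for the spindle, 0.11 for the transport and -0.06 for the cilium and microtubule kinesins, and -0.03 for all genes tested. The direction, NF minus N, follows the labels of the arrays. The paper's text describes cell cycle genes as repressed by FSK in these cells and relates this to an arrest of proliferation. The 6 higher kinesins run against that text, while the study's gene table gives cell cycle genes the opposite direction to the text. The phosphodiesterase genes known to be induced by cAMP, Pde4d and Pde4b, were higher in the arrays labelled NF (log2 changes 1.57 and 1.92, adjusted p = 0.00843 and 0.0188 from limma).

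**Figure D2:**
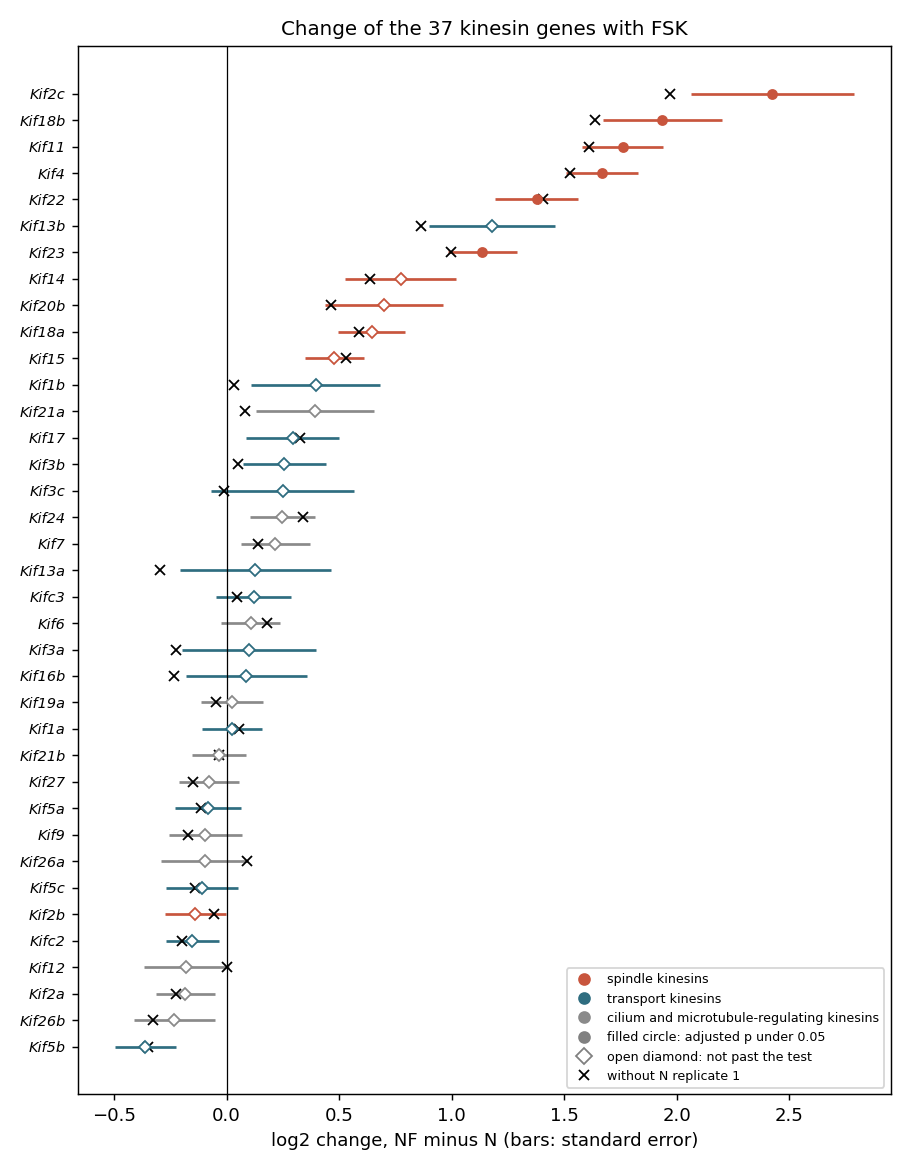
Log2 change, NF minus N (horizontal axis), of the 37 kinesin genes, with the standard error as bars, coloured by class, filled where the adjusted p is under 0.05, and with crosses for the change without N replicate 1. The 6 filled points lie between 1.14 and 2.42, Kif13b, not past the test, is the transport kinesin among them, and most others lie within 0.5 of 0.

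The largest changes among the members were those of Kif2c and Kif18b. Kif2c (MCAK) removes tubulin from microtubule ends at centromeres and so helps to correct wrong attachments. Its log2 expression was 3.98, 5.48 and 5.19 in N replicates 1, 2 and 3 and 7.55, 7.01 and 7.36 in NF. Every NF array lay above the highest N array, and N replicate 1 lay well below the other N arrays. The mean rose from 4.89 ± 0.80 (SD, n = 3) to 7.31 ± 0.27 (SD, n = 3), 5.36-fold (SE of the log2 difference 0.36, adjusted p = 0.0199 from limma). Without N replicate 1 the log2 change was 1.97 instead of 2.42. Kif18b, a motor that shortens astral microtubules together with Kif2c, read 4.63, 5.72 and 5.33 in N and 7.129, 6.995 and 7.373 in NF. N replicate 1 was again the lowest array, and the groups were well apart. Kif18b rose 3.83-fold (SE 0.26, adjusted p = 0.0149 from limma), with a log2 change of 1.94, or 1.64 without N replicate 1.

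The motor that separates the spindle poles rose with little spread. Kif11 (Eg5) slides antiparallel microtubules apart and is needed for a bipolar spindle. Its log2 expression was 4.50, 4.98 and 4.92 in N and 6.69, 6.31 and 6.68 in NF. N replicate 1 was the lowest array, and the step between the groups was far larger than the spread within either. The change was 3.39-fold (SE of the log2 difference 0.18, adjusted p = 0.00716 from limma), a log2 change of 1.76, or 1.61 without N replicate 1. Kif15, a motor that can keep a spindle bipolar when Kif11 is blocked, read 3.80, 3.60 and 3.68 in N and 4.09, 4.10 and 4.33 in NF. The groups did not overlap, but the log2 change of 0.48 did not pass (95% interval 0.17 to 0.78, adjusted p = 0.130 from limma).

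Both chromokinesins, which bind chromosome arms, rose. Kif4, which also shortens the microtubules of the central spindle, read 3.29, 3.66 and 3.77 in N and 5.39, 5.16 and 5.17 in NF. Its groups were compact and well apart, at 3.57 ± 0.25 and 5.24 ± 0.13 (SD, n = 3 each). The change was 3.18-fold (SE of the log2 difference 0.16, adjusted p = 0.00716 from limma), and its p was the lowest of all members. On the log2 scale Kif4 changed by 1.67, or 1.53 without N replicate 1, its lowest array. Kif22 (Kid), which pushes the arms towards the spindle equator, read 3.85, 3.84 and 3.69 in N and 5.50, 4.81 and 5.21 in NF. Here N replicate 1 was not below the other N arrays. Kif22 rose 2.60-fold (SE 0.19, adjusted p = 0.0144 from limma), with a log2 change of 1.38, or 1.41 without N replicate 1. The N means of Kif4 (3.57) and Kif22 (3.79) were close to the median of all probe sets, so their fold changes start from dim signals.

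Among the motors of cytokinesis, Kif23 passed the test and Kif14 and Kif20b did not. Kif23 (MKLP1), the motor subunit of centralspindlin, read 4.38, 4.78 and 4.81 in N and 5.70, 5.89 and 5.80 in NF. Its groups did not overlap, and N replicate 1 was the lowest array. It rose 2.20-fold (SE of the log2 difference 0.15, adjusted p = 0.0144 from limma), a log2 change of 1.14, or 0.999 without N replicate 1. Kif14, which brings citron kinase to the midbody, had 2 probe sets that differed in sign. The brighter read 3.59, 4.21 and 3.79 in N and 4.46, 4.32 and 5.14 in NF, a log2 change of 0.77 that did not pass (95% interval 0.20 to 1.35, adjusted p = 0.200 from limma). The other lay at 2.14 to 2.51 in all arrays, with a log2 change of -0.12 (adjusted p = 0.778). Kif20b, a midbody motor, is named here, outside the rule for named genes, because it was 1 of 5 spindle kinesins that did not pass. It read 2.54, 3.23 and 3.24 in N and 4.17, 3.52 and 3.41 in NF, with a log2 change of 0.70 (95% interval 0.10 to 1.30, adjusted p = 0.284 from limma), or 0.47 without N replicate 1.

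The remaining spindle members were Kif18a and Kif2b. Kif18a, which dampens the movement of chromosomes at metaphase, had the lowest p among members that missed the threshold. It read 3.50, 3.77 and 3.57 in N and 4.48, 4.17 and 4.13 in NF, without overlap, and its log2 change was 0.64 (95% interval 0.30 to 0.99, adjusted p = 0.0729 from limma). Kif2b, a relative of Kif2c at kinetochores, read 2.83, 2.47 and 2.70 in N and 2.56, 2.51 and 2.51 in NF. Its groups overlapped near the lower end of the scale (log2 change -0.14, adjusted p = 0.739). In all, 10 of 11 spindle kinesins had every NF array above every N array, against 10.5% of all genes, where 9.7% had every NF array below every N array, and the 6 that passed were also the 6 at or above a fold change of 2. Kifc1, a minus-end motor that focuses spindle poles, has no probe set of its own. The probe set it shares with Kifc5b read 5.47, 4.75 and 4.95 in N and 5.33, 5.30 and 5.18 in NF, with overlap (log2 change 0.22). Kif20a and Kif1c were not analysed here.

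**Figure D3:**
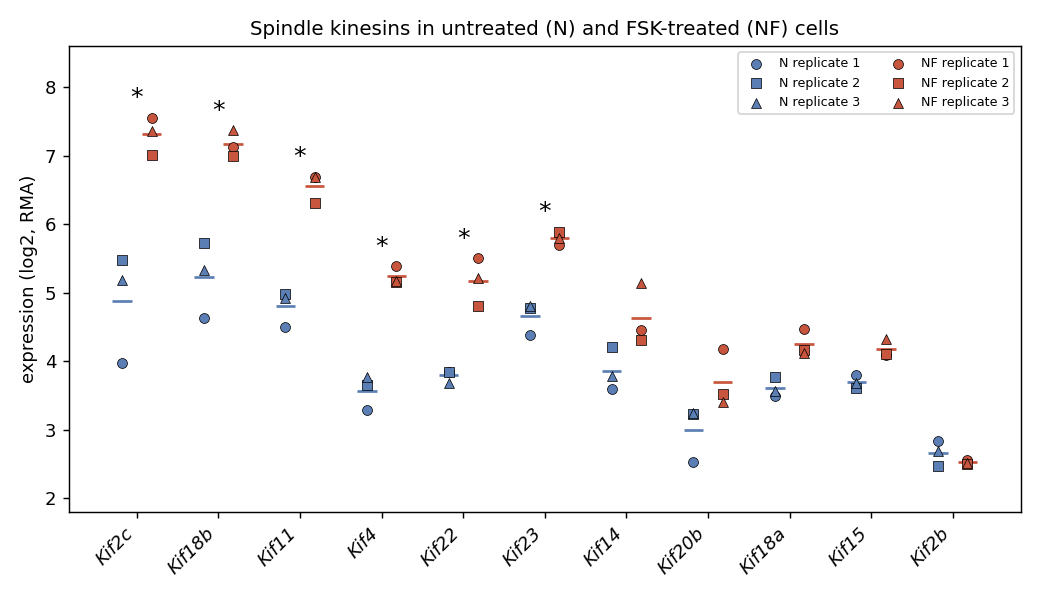
Log2 expression (vertical axis, RMA) of the 11 spindle kinesins in each array, with N in blue, NF in red, 1 symbol shape per replicate number, lines at the group means and stars at the 6 genes past the test. In 10 of the 11 genes, all but Kif2b, the 3 NF points lie above the 3 N points, and N replicate 1 is the lowest array in 8.

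Of the 14 transport kinesins, 0 passed limma's test in either direction (1 higher and 1 lower at an unadjusted p under 0.05, Kif13b and Kif5b). Kif13b carries vesicles to the plasma membrane. It read 4.44, 5.17 and 5.59 in N and 6.40, 5.98 and 6.36 in NF. The groups did not overlap, but the N arrays were spread, and the log2 change of 1.18 had an adjusted p of 0.0820 from limma (95% interval 0.53 to 1.83). Without N replicate 1, the lowest array, the change was smaller, 0.86, but passed (adjusted p = 0.0281 from limma), and it also passed after a further quantile normalization (1.09, adjusted p = 0.0211). Kif5b, the widely expressed heavy chain of conventional kinesin, had the lowest log2 change of all members. Its values of 8.063, 8.004 and 8.054 in N and 7.871, 7.650 and 7.519 in NF did not overlap, and the change of -0.36 did not pass (95% interval -0.67 to -0.05, adjusted p = 0.283 from limma).

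The motor genes of the heterotrimeric kinesin of intraflagellar transport, Kif3a and Kif3b, did not pass the test (95% intervals -0.59 to 0.78 and -0.17 to 0.68). Kif3b read 5.69, 6.28 and 6.32 in N and 6.40, 6.27 and 6.39 in NF, where only N replicate 1 stood apart. Its log2 change was 0.26, and 0.05 without that array (adjusted p = 0.634 with it). Kif3a and the related Kif3c had log2 changes of 0.10 and 0.25, and -0.22 and -0.01 without N replicate 1. The same array carried Kif1b, a motor of mitochondria and vesicles. It read 5.93, 6.95 and 7.07 in N and 7.09, 6.89 and 7.15 in NF, and the change was 0.40 with and 0.03 without N replicate 1. The endosome motors Kif13a and Kif16b went from 0.13 and 0.09 to -0.29 and -0.23 in the same way. In 8 of the 9 transport kinesins at or above the median level N replicate 1 was the lowest of the 6 arrays, Kif5b being the exception. The median log2 change of these 9 was 0.13 with that array and -0.01 without it.

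Most transport kinesins best known from neurons gave dim signals in these fibroblasts, Kif3c at a mean of 4.99 being the exception. Kif1a, Kif5a, Kif5c, Kif17 and Kifc2 had mean log2 levels between 2.74 and 3.34, below the median of all probe sets, like the 6 neuronal markers. Their log2 changes lay between -0.15 and 0.29. Kif17, the highest of them, read 2.65, 2.45 and 2.66 in N and 3.32, 2.80 and 2.53 in NF, with overlap. Kifc3, a minus-end motor, was measured at 5.20 with a log2 change of 0.12. The 95% intervals of 12 of the 14 transport kinesins lay within a 2-fold change in either direction, and the exceptions were Kif13b and Kif1b. Within those bounds, smaller changes of these genes are neither shown nor absent with 3 arrays a group. For the 5 of the 14 below the median of all probe sets, the interval bounds a dim array signal and cannot exclude a change of the mRNA.

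**Figure D4:**
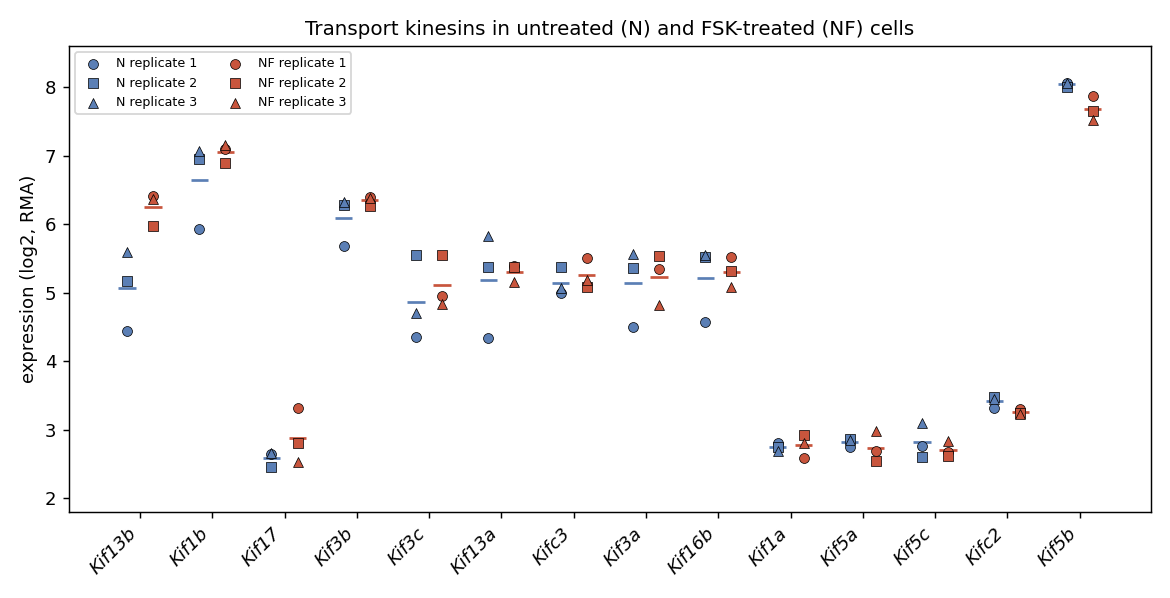
Log2 expression (vertical axis, RMA) of the 14 transport kinesins in each array, with N in blue, NF in red, 1 symbol shape per replicate number and lines at the group means. N replicate 1 is the lowest array for 8 genes, and the groups are apart in Kif13b, where NF is higher, and in Kif5b and Kifc2, where NF is lower. Over all genes, 10.5% had the groups apart with NF higher and 9.7% with NF lower.

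Of the 12 genes in the class of cilia and microtubule length, 0 passed limma's test, and 0 had an unadjusted p under 0.05 in either direction. Their log2 changes ran from -0.23 to 0.39, and the 95% interval of each lay within a 2-fold change. Of the 12, 9 lay below the median of all probe sets, where the interval bounds a dim array signal and cannot exclude a change of the mRNA. Kif21a, which pauses microtubule growth at the cell cortex, had the highest change, 0.39, which was 0.08 without N replicate 1. It read 4.24, 5.27 and 5.09 in N and 5.46, 5.11 and 5.22 in NF. Kif2a, the relative of Kif2c that shortens microtubules at spindle poles and in neurons, read 7.76, 7.78 and 8.01 in N and 7.68, 7.75 and 7.57 in NF. Its NF arrays lay just below its N arrays (log2 change -0.18, adjusted p = 0.632 from limma), and of the Kif2 group Kif2c alone passed the test. Kif2a was sorted by its general role, and counted as a spindle kinesin it would make 6 of 12 past the test and 10 of 12 with NF above N, with a median log2 change of 0.95. Kif7, a regulator of Hedgehog signalling at the tip of the cilium, had changes of 0.22 and 0.09 in its 2 probe sets. Kif24, which restrains the formation of cilia, had one of 0.25 from a dim signal of 2.98 in N and 3.23 in NF.

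The other members of this class, Kif6, Kif9, Kif12, Kif19a, Kif21b, Kif26a, Kif26b and Kif27, had mean levels between 2.54 and 3.21 and log2 changes between -0.23 and 0.11. The probe sets of Kif6 (0.11 and -0.11) and Kif26b (0.12 and -0.23) disagreed in sign, and 0 of these 4 passed the test (0 also at an unadjusted p under 0.05). Across the 37 members, 25 had a mean that was higher in NF, or 67.6%, against 45.2% of all genes. Groups overlapped in 23 members, while 11 (29.7%) had every NF array above every N array and 3 (8.11%) had every NF array below. Over all genes these shares were 10.5% and 9.7%. Without N replicate 1, 22 of the 37 had a higher mean in NF.

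Of 12 measured genes for proteins that work with the spindle kinesins, 7 rose and 5 did not pass, with a median log2 change of 1.04, or 0.88 without N replicate 1. Over all genes, 1.83% passed as higher and the median log2 change was -0.03. The count of partners past the test was 0 with NF replicate 1 or NF replicate 3 left out, 2 in the absence of N replicate 3 and 3 in that of NF replicate 2. Cenpe, a kinetochore kinesin whose symbol lies outside the rule, read 3.57, 3.90 and 3.74 in N and 5.30, 4.64 and 4.78 in NF, and rose 2.24-fold (SE of the log2 difference 0.19, adjusted p = 0.0269 from limma). Prc1, which bundles midzone microtubules and recruits Kif4, rose by 1.63 on the log2 scale (adjusted p = 0.0116 from limma). The kinase Aurkb, which phosphorylates Kif2c, had a log2 change of 1.82 (adjusted p = 0.0215), or 1.4999 without N replicate 1. Of its companions in the chromosomal passenger complex, Birc5 and Cdca8 had changes of 1.04 and 1.04 (adjusted p = 0.0111 and 0.0427). Incenp, of the same complex, did not pass (log2 change 1.32, adjusted p = 0.0799 from limma), and its change was 0.91 without N replicate 1. Also not past the test were Gtse1, Mapre1 and Nek9, with log2 changes of 0.69, 0.50 and 0.41. The remaining partner, Nek7, had a lower mean in NF (-0.33, or -0.50 without N replicate 1). Cit, the kinase that Kif14 brings to the midbody, rose by 0.89 (adjusted p = 0.0231). The other gene past the test, the mitotic kinase Plk1, had a change of 1.77 (adjusted p = 0.0443), or 1.33 without N replicate 1. Of 12 partners of cargo transport, such as the light chains Klc1 and Klc4 and the adaptors Trak1 and Trak2, 0 passed by limma, nor did any before adjustment at p under 0.05, with log2 changes from -0.32 to 0.46 and a median of 0.04. The highest of them, Kifap3, had a change of 0.19 without N replicate 1.

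**Figure D5:**
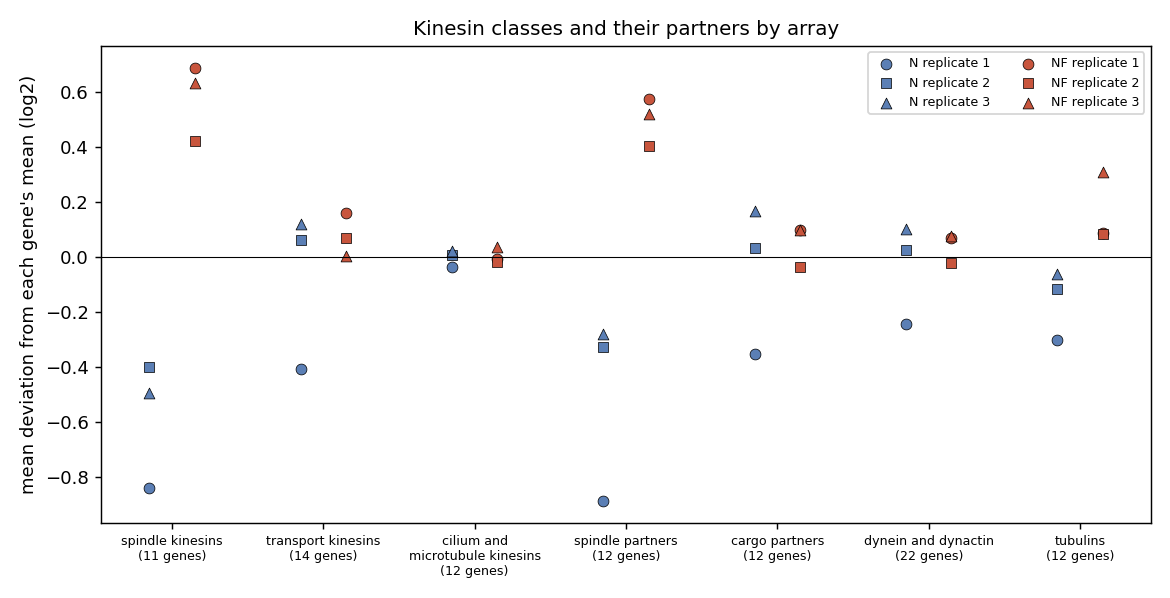
Mean deviation of each list's genes from the gene's mean over the 6 arrays (vertical axis, log2) in each N (blue) and NF (red) array, for the 3 kinesin classes and 4 lists of partner genes, with the number of genes under each. In the spindle kinesins the NF arrays lie between 0.42 and 0.69 and the N arrays between -0.84 and -0.40, while in the transport kinesins N replicate 1 at -0.41 is the array that stands apart.

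The replicates set how far these calls reach. The 6 calls held when N replicate 1, N replicate 2 or NF replicate 2 was left out, and 5 held in the absence of N replicate 3, where Kif22 had an adjusted p of 0.0506 from limma. Without NF replicate 1 and without NF replicate 3, 0 members passed limma's adjustment, although the log2 changes of the 6 stayed between 1.14 and 2.40. All genes together then had 1 and 2 calls.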

How the data were processed

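The table deposited by the authors gives expression on the log2 scale, summarized by RMA with the Bioconductor package oligo as the paper's methods and the submitters' processing notes state. The package version and genome build are not given in the sources used here. The authors had dropped those lacking an Entrez gene identifier, and which arrays were normalized together is not stated. Precision is limited by the number of arrays, 3 a group. Of 22035 probe sets, 18197 were paired with 1 gene symbol and tested, 1260 with several and 2578 not listed were left out, and all 6 columns had a sample. Like the study's own analysis, the contrast of NF and N was fitted by limma, here version 3.58.1 (lmFit and eBayes, R 4.3.3), with Benjamini-Hochberg adjustment over all 18197 probe sets and a threshold of 0.05. Where a gene had several probe sets, the lowest p chose among them, for 708 genes. Intervals at 95% come from limma's moderated error. Fold changes are differences of mean log2 values.

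Members, role classes, partner lists, motifs and tests were chosen with earlier results of these data known. Named are the members past the test, the 3 nearest it, the extremes of each class, the 4 lowest p of the transport and cilium classes, genes whose probe sets disagree, up to 6 partners a list past the test, and Cenpe, Pde4b and Pde4d. The remaining members are given so that each is accounted for, and other genes were named after their values were seen. Promoters are those of RefSeq, build GRCm38.p6, matched by symbol. The fit was tested on simulated data. Same-numbered N and NF arrays had correlations of their deviations from the group means of -0.0748, -0.0780 and -0.0736. Over all genes they thus showed no shared replicate deviation, and the labels do not say whether same-numbered arrays were paired. Alternatives were a replicate block, quantile normalization, centring, a filter on dim probe sets, another probe set rule, the trend and robust options of limma, an unmoderated per-gene test with equal variances (the one the paper's general statistics section names), all probe sets, and arrays left out.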

Additional observations from a re-analysis of the deposited data

How the results depend on the processing

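The count of 6 kinesins higher in NF, all of the spindle, was also reached with each array centred on its median, with the probe set of the highest mean, with limma's trend or robust option and with every probe set of the table tested. It was 7, through Kif13b, after quantile normalizing again, without dim probe sets, and with N replicate 1 and NF replicate 2 both left out, so that the count of transport kinesins became 1 in each of these. With the replicate block, although same-numbered arrays showed no shared deviation, 4 kinesins passed (Kif11, Kif18b, Kif23 and Kif4) and 0 spindle partners. Over all genes 63 were then higher and 17 lower, against 307 and 121 without the block, 495 and 365 after quantile normalization, 359 and 148 without dim probe sets and 541 and 497 without both of those arrays. By the unmoderated per-gene test, with Benjamini-Hochberg adjustment, 0 kinesins, 0 spindle kinesins and 0 spindle partners passed, with 1 gene higher of all, and without adjustment, where 1000 genes were higher and 861 lower, 9 kinesins were higher, 8 of them spindle kinesins, and 2 lower (Kif5b and Kifc2, both transport), with 1 higher transport kinesin, 1 higher dynein and dynactin gene and 2 higher tubulin genes. Leaving out each array in turn gave 0 to 7 kinesins, 0 to 6 spindle kinesins, 0 to 1 transport kinesins, 0 to 8 spindle partners and 0 to 1 tubulin genes higher, with 0 without NF replicate 1 or NF replicate 3, 5 kinesins without N replicate 3, and 2 and 3 spindle partners without N replicate 3 and NF replicate 2. Tubulin genes higher were 1 after quantile normalization and 2 with N replicate 1 and NF replicate 2 both left out. Chosen after the data were seen, limma's unadjusted p under 0.05 gave 11 kinesins higher and 1 lower, 10 spindle kinesins, 1 transport kinesin higher and 1 lower, 11 spindle partners, 2 dynein and dynactin genes and 5 tubulin genes. Of single members, the sign turned for Kif26b after quantile normalization (0.18), without N replicate 2 (0.17) and without NF replicate 3 (0.32), and for Kif6 with centring (-0.15), with the probe set of the highest mean (-0.11), without N replicate 2 (-0.16) and without NF replicate 3 (-0.29). Both genes have 2 probe sets of opposite sign, and over the arrays left out in turn Kif26b ran from -0.39 to 0.32 and Kif6 from -0.29 to 0.18. The causes of the other losses were not tested.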

Other observations

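Tubulins form the tracks that kinesins walk on. Of 12 measured tubulin genes, 10 had a higher mean in NF, with a median log2 change of 0.38, and 0 passed limma's adjustment (5 higher at an unadjusted p under 0.05, Tubb2a, Tuba1a, Tube1, Tubb2b and Tubb5). Over all genes, 45.2% had a higher mean, the median log2 change was -0.03, and 8.33% were higher at that unadjusted p by limma. Tuba1a, an alpha-tubulin, read 9.93, 10.42 and 10.49 in N and 10.98, 10.77 and 11.03 in NF, without overlap (log2 change 0.65, adjusted p = 0.125 from limma). Tubb2a, a beta-tubulin, read 6.11, 6.84 and 6.42 in N and 7.40, 6.98 and 7.33 in NF, a log2 change of 0.78 (adjusted p = 0.119 from limma). N replicate 1 was the lowest N array for both, and without it the median of the list was 0.20.

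Cytoplasmic dynein carries cargo towards microtubule minus ends with its activator dynactin. Of 22 measured genes of both, 0 passed limma's adjustment (2 higher and 0 lower at an unadjusted p under 0.05), with log2 changes from -0.35 to 0.57 and a median of 0.02. Over all genes, 8.33% were higher and 5.49% lower at that unadjusted p by limma, so 2 of 22 is near the share of all genes. The 2 were Actr1a, the actin-related subunit of the dynactin filament, and Nde1, a dynein regulator that also acts in mitosis. Actr1a read 8.43, 8.69 and 8.49 in N and 9.17, 9.06 and 9.11 in NF (log2 change 0.57, adjusted p = 0.0649 from limma), and Nde1 had a log2 change of 0.48 (adjusted p = 0.329).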
